A study of Mus musculus with 13 samples.

Results

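Genes of cytosolic DNA and RNA sensing were examined in cultured 4T1 cells exposed to doxorubicin (DOX), recombinant mouse IL-17A or both. The members were 10 genes chosen by name. They are the RNA sensors *Ddx58*, *Ifih1*, *Dhx58* and *Tlr3*, and *Mavs*, the adaptor of *Ddx58* and *Ifih1*. The others are the cGAS-STING arm *Mb21d1* and *Tmem173*, the exonuclease *Trex1*, the kinase *Tbk1* and the transcription factor *Irf3*. All 10 were among the 13222 genes listed (*Mb21d1* under its current symbol *Cgas*), and all 10 were among the 12319 genes tested. 4T1 is a mammary carcinoma line from BALB/c mice and a model of triple negative breast cancer, and the cells used carried the Thy1.1 marker. Untreated cells (control, n = 3) were compared with cells given 200 ng/mL DOX (n = 4), 200 ng/mL DOX with 25 ng/mL IL-17A (DOX+IL-17A, n = 3) or the same dose of IL-17A by itself (IL-17A, n = 3), for 48 hours. The dose and time are those given for cells in culture. The libraries are labelled as cultures of this line alone. The authors state biological replicates for their data in general, without saying for these libraries whether each was a separate culture. The p-values measure the spread between these libraries, which may then be partly technical.

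DNA and RNA in the cytosol are signs of infection or of damage to the nucleus or mitochondria, and cells carry separate sensors for each. RIG-I (encoded by *Ddx58*) and MDA5 (*Ifih1*) bind double-stranded RNA and signal through MAVS on mitochondria, while cGAS (*Mb21d1*) binds double-stranded DNA and makes the messenger cGAMP, which activates STING (*Tmem173*) on the endoplasmic reticulum. Both routes meet at the kinase TBK1, which phosphorylates IRF3 and so turns on type I interferon and early antiviral genes. The genes of the RNA sensors are themselves induced by interferon, and anthracyclines such as DOX, which intercalate in DNA and poison topoisomerase II, are known to start interferon signalling in tumor cells.

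The values are deposited TMM-normalized signal, that is, reads per gene over a library size scaled by TMM, from 3' end sequencing in which each transcript gives about a single fragment whatever its length. Libraries held 4445592 to 16930600 reads on listed genes. A value of 3 reads, taken as the lowest detectable, lay between 0.183 and 0.613 units depending on the library. The members had between 20 and 2417 reads per library, well above this floor, which covers counting error only. Genes were tested with 2-sided moderated tests in limma on log2(value + 1) in all 13 libraries together, and a gene counted as called when its p, adjusted by Benjamini-Hochberg over all tested genes, was under 0.05 and its fold change above 2. A log2 fold change on this scale understates the change of low genes. In bulk RNA a higher value in some cells and a larger share of such cells cannot be told apart.

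The label of the cells was checked on marker genes. All 8 epithelial and line markers were listed, with no library at 0 for any of them, and *Krt7* was the most abundant (mean 427). Their summed value was 2057 to 2504 in control and 1824 to 2199 with IL-17A, against 1050 to 1162 with DOX and, with both agents, 936 to 1154. Of 16 immune cell markers 6 were listed (*Ptprc*, *Cd68*, *Csf1r*, *Itgam*, *Laptm5* and *Coro1a*), and the rest were not analysed here. Their summed value was 55.1, 44.2, 27.4 and 30.7 in DOX replicates 1 to 4, 19.3 to 21.6 in control, 12.6 to 20.54 with DOX+IL-17A and 10.7 to 17.01 with IL-17A, so that each DOX library exceeded all other libraries. *Csf1r* was the most abundant (mean 13.4), and the 3 immune markers tested did not move together. *Cd68* was called higher with DOX (log2 fold change 2.01, adjusted p = 0.016, limma) and *Ptprc* in DOX+IL-17A against control (1.33, adjusted p = 0.022, limma), while *Csf1r* had 0.46 and -1.19 there without a call. For the comparison of DOX+IL-17A with DOX, in which sensors were called lower, *Csf1r* had -1.65 (unadjusted p = 0.0015, adjusted p = 0.18, limma) and *Cd68* -0.86 (adjusted p = 0.97), both without overlap of the groups and without a call, and *Ptprc* had 0.95. The part of these transcripts in the values of the sensors was not tested. Of 10 fibroblast and endothelial markers 5 were listed, summing to 143 in control replicate 1 and to between 27.9 and 78.1 elsewhere, led by *Col1a1* (mean 19.4). A single library stood apart on muscle and red blood cell genes. The 11 muscle markers listed of 12 summed to 302 in DOX replicate 1 and to at most 52.8 in any other library (*Tnni2* most abundant over all libraries, mean 9.83). The 3 red blood cell markers listed of 9 summed to 66.5 in that library and to at most 14.4 in any other, led by *Hba-a2* (mean 4.91, at 0 in 3 libraries). Control replicate 1 also stood apart, at 74.7 on the second principal component, where the other 12 libraries lay between -42.9 and 23.4. Without DOX replicate 1, and likewise without control replicate 1, the count of members called in DOX against control was 5, in place of 4. In DOX+IL-17A against DOX, *Ifih1* and *Dhx58* lost their calls without DOX replicate 1 (log2 fold changes -1.28 and -1.81, limma adjusted p = 0.078 and 0.117). All 9 muscle and 3 red blood cell markers tested were lower in that comparison with all libraries (medians -1.29 and -1.45), none of them called.

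Of the 4 RNA sensors, the genes for MDA5, LGP2 and TLR3 passed both thresholds with DOX. *Ifih1* encodes MDA5, the sensor of long double-stranded RNA (chr2:62595798-62646255, minus strand, mm10). Its values were 30.5, 26.0 and 34.3 in control replicates 1, 3 and 5, and 81.3, 56.3, 109.6 and 119 in DOX replicates 1 to 4. Every DOX library lay above every control library, although the DOX libraries differed among themselves by as much as a factor of 2. The mean rose from 30.3 ± 4.15 (SD, n = 3) to 91.5 ± 28.4 (SD, n = 4), or 1.52 in fitted log2 units (standard error, SE, 0.25, limma adjusted p = 0.00085). *Dhx58* encodes LGP2, a helicase that lacks signalling domains and modulates RIG-I and MDA5 (chr11:100694884-100704271, minus strand). Its values were 3.38, 7.06 and 11.6 in control and 33.8, 25.3, 36.8 and 52.6 with DOX, so the lowest DOX library held more than any control library. This was the largest change among the 10 members, with a log2 fold change of 2.27 (SE 0.37, limma adjusted p = 0.00086). An annotated antisense gene lies over its 3' end on the other strand. The library kit keeps the strand, but whether reads were counted by strand is not given in the sources used here. *Tlr3* encodes the endosomal receptor of double-stranded RNA, which signals through TRIF and not MAVS (chr8:45395665-45411080, minus strand). Its values were 33.5, 42.9 and 42.2 in control and 95.1, 97.6, 98.8 and 117 with DOX, again without overlap, and its DOX libraries lay closest together among the 4 RNA sensors, with an SD of 9.92. The log2 fold change of *Tlr3* was 1.35 (SE 0.19, limma adjusted p = 0.00025).

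*Ddx58*, the gene for RIG-I, which detects short double-stranded RNA with a 5' triphosphate, stopped just short of the fold threshold (chr4:40203773-40239828, minus strand). Its values were 120.5, 72.0 and 94.1 in control and 160.1, 163, 211 and 216 with DOX. The groups did not overlap, and the ratio of the means was 1.96. Its log2 fold change was 0.98 (SE 0.21, limma adjusted p = 0.0040), past the adjusted p and under a fold of 2. The call therefore turned on small shifts, and *Ddx58* was called with voom, with scaling by library size alone, and when control replicate 1, DOX replicate 1 or DOX replicate 2 was left out (log2 fold changes 1.02, 1.16, 1.16, 1.05 and 1.04).

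**Figure D1:**
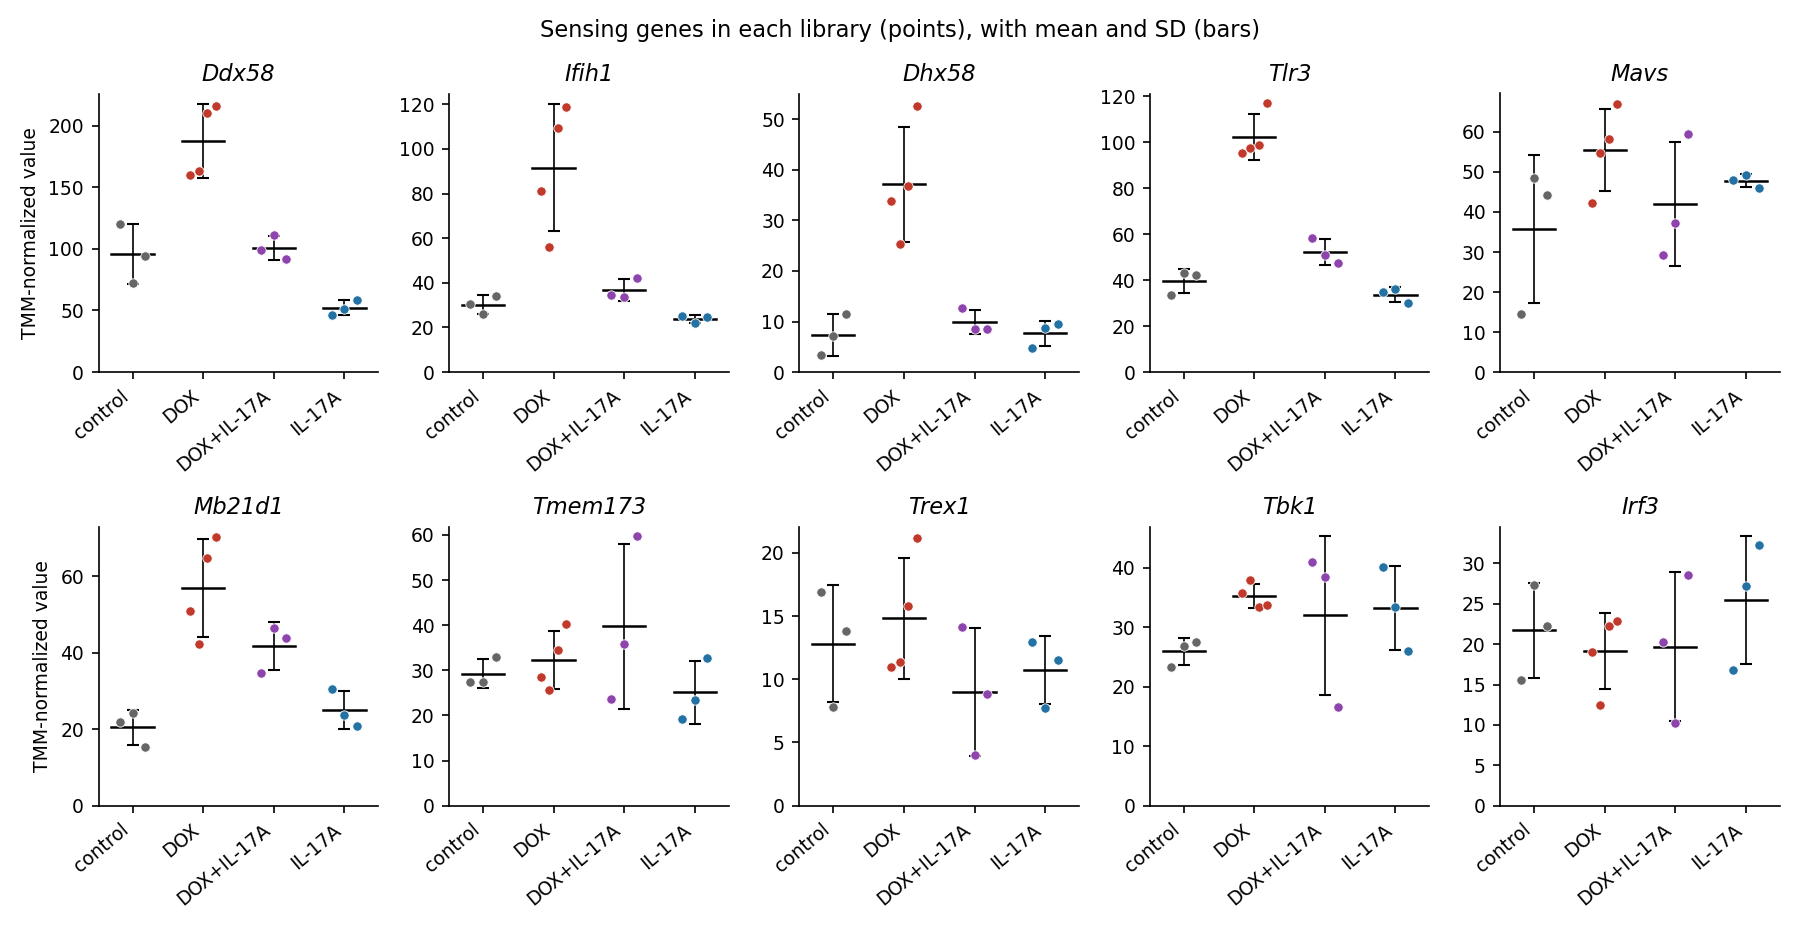
TMM-normalized value of each member (y axis from 0, a scale for each panel) in each of the 13 libraries (points) of control, DOX, DOX+IL-17A and IL-17A, with the group mean and SD as bars. The 4 DOX libraries lie above all control libraries for *Ddx58*, *Ifih1*, *Dhx58*, *Tlr3*, *Mb21d1* and *Tbk1*, and the 3 DOX+IL-17A libraries lie below all DOX libraries for the 4 RNA sensors.

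The start regions of the sensors are shown because genes of RNA sensors are known interferon targets. Whether interferon had a part in their change was not tested. Of the 10 members, 8 had a promoter in the RefSeq table (GRCm38.p6, 250 bases before to 50 after the start; not *Dhx58* and *Tmem173*). The letters searched were GAAANNGAAA, the core of the interferon-stimulated response element, on both strands. They were in 3.44% of 32851 promoters. GAAANNGAAA was in *Ifih1*, starting 33 bases into the transcript, and on the opposite strand in *Ddx58*, 3 bases into it. The letters were not in the window of *Tlr3*, *Mb21d1*, *Mavs*, *Trex1*, *Tbk1* or *Irf3*. The window of *Tlr3* lies wholly inside its locus as given above, downstream of the 5' end of that locus, which was not searched. A match is a string of letters and not a measured site. The promoters of *Ifih1* and *Ddx58*, with the matched letters in capitals, and those of *Tlr3* and *Mb21d1*, which were called without a match, read 5′ to 3′ as follows.
*Ifih1*, chr2:62646206-62646505, minus strand: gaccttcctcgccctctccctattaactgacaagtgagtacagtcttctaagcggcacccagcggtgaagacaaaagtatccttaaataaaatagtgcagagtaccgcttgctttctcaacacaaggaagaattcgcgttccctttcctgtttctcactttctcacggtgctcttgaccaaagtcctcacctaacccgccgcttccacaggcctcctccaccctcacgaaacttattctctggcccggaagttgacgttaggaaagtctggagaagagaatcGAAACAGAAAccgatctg
*Ddx58*, chr4:40239776-40240075, minus strand: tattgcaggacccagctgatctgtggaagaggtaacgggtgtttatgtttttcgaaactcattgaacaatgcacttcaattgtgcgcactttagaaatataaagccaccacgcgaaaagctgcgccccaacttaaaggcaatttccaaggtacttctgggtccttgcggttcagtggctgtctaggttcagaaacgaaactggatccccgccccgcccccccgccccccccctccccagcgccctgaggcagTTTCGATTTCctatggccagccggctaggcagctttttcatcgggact
*Tlr3*, chr8:45410331-45410630, minus strand: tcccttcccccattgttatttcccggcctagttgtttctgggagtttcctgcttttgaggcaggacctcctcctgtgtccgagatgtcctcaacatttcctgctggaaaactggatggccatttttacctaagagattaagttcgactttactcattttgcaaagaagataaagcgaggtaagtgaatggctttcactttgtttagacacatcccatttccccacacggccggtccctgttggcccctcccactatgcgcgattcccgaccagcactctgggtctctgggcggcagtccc
*Mb21d1*, chr9:78443188-78443487, minus strand: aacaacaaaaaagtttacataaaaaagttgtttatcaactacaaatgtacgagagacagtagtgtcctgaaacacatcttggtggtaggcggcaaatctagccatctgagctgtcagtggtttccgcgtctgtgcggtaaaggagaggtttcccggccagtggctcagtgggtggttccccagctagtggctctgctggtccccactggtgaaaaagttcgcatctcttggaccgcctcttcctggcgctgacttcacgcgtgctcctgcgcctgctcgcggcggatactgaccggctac

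When IL-17A was given with DOX, *Ifih1* and *Dhx58* were called lower than with DOX alone. *Ifih1* stood at 34.6, 33.6 and 42.4 in DOX+IL-17A replicates 2, 3 and 5, below the lowest DOX library, with 1 value inside the control range and the others above it. Its log2 fold change against DOX was -1.24 (SE 0.25, limma adjusted p = 0.041), and against control 0.28 (adjusted p = 0.50, 95% interval -0.29 to 0.84). *Dhx58* stood at 12.7, 8.44 and 8.49, which is 0.266 of the DOX mean, with a log2 fold change against DOX of -1.79 (SE 0.37, limma adjusted p = 0.049). Against control its log2 fold change was 0.49 (95% interval -0.36 to 1.34, adjusted p = 0.42). For both genes the group with both agents overlapped the control group and did not overlap the DOX group.

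*Tlr3* and *Ddx58* had the same order of groups with smaller differences. *Tlr3* was 58.3, 50.8 and 47.3 with both agents, and fitted at -0.96 against DOX in log2 (SE 0.19, limma adjusted p = 0.041), past the adjusted p and under the fold. It stayed past the adjusted p in 3 of 13 fits without a library (limma adjusted p 0.0089 to 0.19) and did not with a block on the replicate number (0.20). *Ddx58* was 98.8, 111 and 91.8, a log2 fold change of -0.88 (SE 0.21, limma adjusted p = 0.098), which missed both thresholds although the groups did not overlap. Against control, the fitted values for *Tlr3* (0.39, adjusted p = 0.19) and *Ddx58* (0.10, adjusted p = 0.79) were not called. The *Tlr3* values with both agents all lay above the control maximum of 42.9, while those of *Ddx58* overlapped control. For 30.1% of all tested genes these groups did not overlap. The calls of *Ifih1* and *Dhx58* against DOX lie at the edge of the threshold. *Ifih1* remained called only without control replicate 1, control replicate 3 or DOX replicate 2, and *Dhx58* only without control replicate 1 or control replicate 5. Leaving out any other library ended the call, with adjusted p between 0.0085 and 0.28 for *Dhx58* and between 0.012 and 0.23 for *Ifih1* over the 13 libraries left out in turn. Both also lost the call with a pseudocount of 0.1 (limma adjusted p = 0.095 for *Dhx58* and 0.059 for *Ifih1*). A block on the replicate number ended both calls as well (limma adjusted p = 0.13 and 0.20 in that order). The call of *Dhx58* was further lost with edgeR, with scaling by library size alone and over all listed genes (adjusted p = 0.0621, 0.0633 and 0.0517). The log2 fold changes over these fits stayed between -1.97 and -1.61 for *Dhx58* and between -1.45 and -1.10 for *Ifih1*.

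IL-17A alone left the 4 sensors without a call. *Ddx58* was lower in every IL-17A library (46.5, 51.2 and 58.7) than in any control library, with a ratio of means of 0.546 and a log2 fold change of -0.84 (standard error 0.22, unadjusted p = 0.0016 and adjusted p = 0.88, limma). The difference did not survive the adjustment over all genes. *Ifih1* (25.2, 22.0 and 24.5) also lay just below the control range, at a log2 fold change of -0.32 (adjusted p = 0.96), while *Dhx58* and *Tlr3* overlapped control. The order of group means was DOX, DOX+IL-17A, control and IL-17A for *Ifih1*, *Tlr3* and *Ddx58*. For *Dhx58* IL-17A (7.63 ± 2.55) and control (7.33 ± 4.09) were in the other order, within their spread (SD, n = 3).

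The adaptor of RIG-I and MDA5 did not pass the test in any comparison. *Mavs* (chr2:131234063-131248025, plus strand) was 14.5, 48.5 and 44.3 in control and 42.3, 54.7, 58.3 and 67.0 with DOX. The values were 29.2, 37.3 and 59.4 when both agents were given, and 48.1, 49.4 and 46.1 with IL-17A. Control replicate 1, the library apart on the second component, had the lowest of these values, from 86 reads. With DOX the log2 fold change of *Mavs* was 0.77 (95% interval 0.03 to 1.52, adjusted p = 0.12, limma). It was 0.24 without control replicate 1 (adjusted p = 0.54) and 1.07, past both thresholds, without control replicate 3 (adjusted p = 0.046), so that single control libraries set its size.

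In the cGAS-STING arm the DNA sensor was called with DOX and its partner was not. *Mb21d1*, which encodes cGAS (chr9:78430526-78443237, minus strand), was 22.0, 24.1 and 15.2 in control and 50.9, 42.2, 64.7 and 70.1 with DOX. All DOX libraries exceeded all control libraries, and the mean rose from 20.4 ± 4.65 (SD, n = 3) to 57.0 ± 12.8 (SD, n = 4), a log2 fold change of 1.43 (SE 0.25, limma adjusted p = 0.0012). With DOX+IL-17A the values were 34.6, 46.6 and 43.9, still above every control library. *Mb21d1* was the 1 member called in DOX+IL-17A against control, at a log2 fold change of 1.01 (SE 0.27, limma adjusted p = 0.018). Against DOX its log2 fold change was -0.43 (95% interval -0.96 to 0.11, adjusted p = 0.95), and the groups overlapped. IL-17A alone gave 30.5, 23.6 and 20.8, overlapping control (log2 fold change 0.28, adjusted p = 0.96). The call in DOX+IL-17A against control lies close to the fold of 2. It was lost without control replicate 5, DOX+IL-17A replicate 3 or DOX+IL-17A replicate 5 (log2 fold changes 0.82, 0.92 and 0.96, adjusted p = 0.080, 0.068 and 0.048) and in a fit of only the groups compared (adjusted p = 0.093), against adjusted p between 0.0049 and 0.093 over the settings. An antisense pseudogene lies over the 3' end of *Mb21d1*, with the same limit on strand as above.

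*Tmem173*, the gene for STING (chromosome 18), was not called in any comparison. Its values were 27.4, 27.3 and 33.0 in control and 28.5, 25.7, 34.5 and 40.1 with DOX, with a log2 fold change of 0.12 (95% interval -0.51 to 0.75, adjusted p = 0.80, limma). DOX+IL-17A gave 23.7, 35.8 and 59.7, the widest spread of any group for this gene, and IL-17A gave 19.1, 23.4 and 32.7. The order of means was DOX+IL-17A, DOX, control and IL-17A, and neighbours in this order did not differ beyond their spread. The interval for DOX against control ends short of a fold of 2 in both directions.

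*Trex1* encodes the exonuclease that degrades cytosolic DNA before cGAS can bind it, and its loss is known to activate cGAS (chr9:109057933-109059734, minus strand). It was low, at 16.9, 7.79 and 13.8 in control and 10.9, 11.4, 15.8 and 21.2 with DOX, from 100 to 237 reads per library. The DOX and control libraries overlapped in part, with DOX replicate 4 above all control libraries and control replicate 3 below all DOX libraries, and the log2 fold change was 0.21 (95% interval -0.63 to 1.04, adjusted p = 0.74, limma). With DOX+IL-17A the values were 14.1, 3.97 and 8.86 and with IL-17A 12.95, 7.70 and 11.6. The fitted difference of DOX+IL-17A from DOX was -0.76 (95% interval -1.60 to 0.08, adjusted p = 0.89), and leaving out each library in turn moved it between -1.13 and -0.33. Means were in the order DOX, control, IL-17A and DOX+IL-17A, and no neighbours differed beyond their spread. *Trex1* lies inside the annotated locus of *Atrip* on the same strand, where reads of both could be shared between them, so its value is uncertain. *Atrip*, given for this reason after its values were seen, was also without a call (log2 fold change -0.12 with DOX, adjusted p = 0.85).

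The shared kinase and transcription factor were not called in any comparison. *Tbk1* (chr10:121546455-121586787, minus strand) was 23.3, 26.9 and 27.6 in control and 35.8, 37.9, 33.4 and 33.8 with DOX. The groups did not overlap, but the difference was small, with a ratio of means of 1.36 and a log2 fold change of 0.43 (SE 0.28, limma adjusted p = 0.29). It spread from 16.5 to 40.9 with DOX+IL-17A and from 26.0 to 40.1 with IL-17A. *Irf3* (chr7:44997648-45002848, plus strand) ranged from 10.2 to 32.3 over all libraries with every pair of groups overlapping, and its log2 fold change with DOX was -0.17 (95% interval -0.92 to 0.57, adjusted p = 0.75). IRF3 is regulated by phosphorylation, which RNA values do not show. *Bcl2l12* overlaps *Irf3* on the opposite strand away from its 3' end, at a mean value of 2.13.

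**Figure D2:**
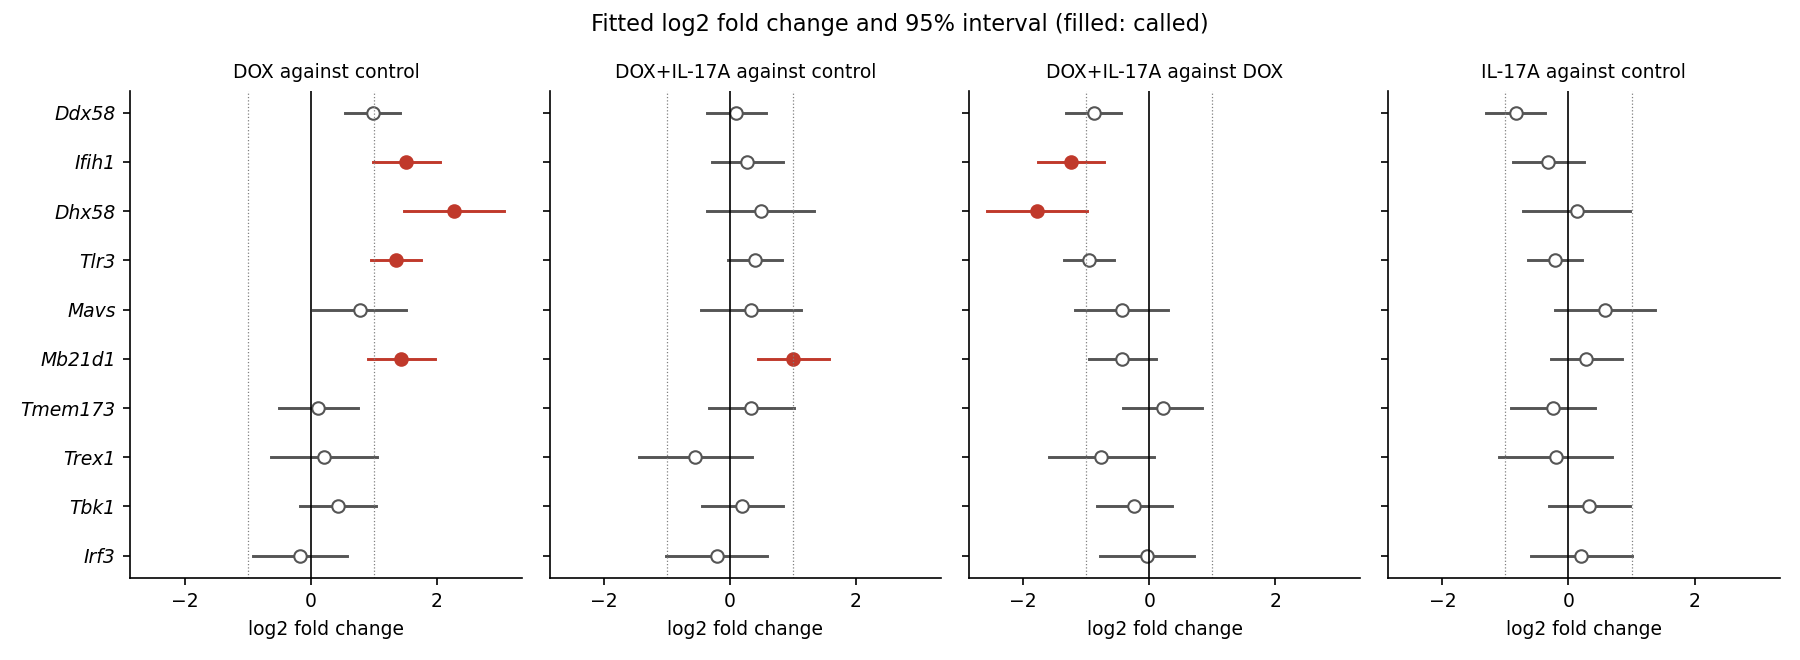
Fitted log2 fold change of each member (points) with its 95% interval (lines) from limma, in 4 comparisons, where filled red points are called and dotted lines mark a fold of 2. With DOX 4 members are called higher, with DOX+IL-17A against control only *Mb21d1*, and in DOX+IL-17A against DOX *Ifih1* and *Dhx58* are called lower.

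Over the 10 members, 4 were called higher and 0 lower in DOX against control, where 9.15% of the 12319 tested genes were called higher and 6.18% lower. At the adjusted p alone 5 passed, where 22.1% of all genes did. The median log2 fold change of the members was 0.88, against 0.09 for all tested genes. Against control, DOX+IL-17A had 1 called higher and 0 lower (6.95% and 5.95% of all genes), with a median of 0.31 against 0.04. There the groups did not overlap for 2 members, *Tlr3* and *Mb21d1*, and for 30.1% of all tested genes. Against DOX, DOX+IL-17A had 0 called higher and 2 lower, where 0.114% of all genes were called higher and 0.325% lower, and 3 passed the adjusted p alone (0.455% of all genes). The groups did not overlap for 6 members in DOX against control and for 4 in DOX+IL-17A against DOX, where they did not for 33.7% and 10.3% of all tested genes. The median in the latter was -0.60 against -0.03, and *Tmem173* was the 1 member with a positive value. These comparisons share libraries, so their values are not independent of each other. The 4 genes called with DOX were also called in all 9 other settings and in each of the 13 fits without a library.

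In IL-17A against control 0 members were called, where 0.00812% of all genes were, and 1 member (*Ddx58*) was under an unadjusted p of 0.05 with limma, voom, DESeq2 and edgeR alike (3.08% of all tested genes with limma). In DOX+IL-17A against IL-17A 0 were called, against 9.84% of all genes, with 4 members under an unadjusted p of 0.05 in limma and edgeR, 3 in voom and 5 in DESeq2, where 28.5% of all tested genes were in limma. *Ddx58* came closest there, 100.6 ± 9.77 against 52.1 ± 6.12 (SD, n = 3 each), with a log2 fold change of 0.94 (SE 0.22, limma adjusted p = 0.013). It passed the fold when libraries were scaled by size alone (1.15, adjusted p = 0.0040) or without IL-17A replicate 5 (1.02, adjusted p = 0.024), among adjusted p between 0.0017 and 0.051 over all fits. The log2 step of *Ddx58* from adding DOX was 0.94 with IL-17A and 0.98 without.

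Whether IL-17A acted differently in the presence of DOX was tested as an interaction. With limma 0 members passed an adjusted p of 0.05, and 0 of all genes did (0%), where DESeq2 had 18 genes called lower (0.146%) and voom and edgeR 0. In all, 3 members were under an unadjusted p of 0.05 with limma, voom, DESeq2 and edgeR (4.51% of all tested genes with limma). These were *Dhx58* (log2 difference -1.92, 95% interval -3.08 to -0.75, unadjusted p = 0.0031, adjusted p = 0.80, limma), *Tlr3* (-0.74, adjusted p = 0.90) and *Ifih1* (-0.92, adjusted p = 0.90). For *Ddx58* the difference was -0.05 (95% interval -0.69 to 0.59, adjusted p = 0.99). An effect of IL-17A restricted to DOX-treated cells was therefore not shown for any member.

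The scale of the comparison depended in part on normalization. Under scaling by library size alone the median over the tested genes, in DOX against control, went from 0.09 to 0.24 in log2 units, and the called genes from 1127 higher and 761 lower to 1516 and 488. In DOX+IL-17A against control the split moved from 856 and 733 to 1227 and 517. The members moved with the median, *Ddx58* from 0.98 to 1.16, which passed the fold, and *Ifih1* from 1.52 to 1.69. A change of scale moves every gene by about the same amount, so values relative to the median stay close by construction (*Ifih1* 1.43 and 1.45 above it, *Mb21d1* 1.34 and 1.36), and they do not tell which scaling is right.

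The 2 arms were also set against each other within each library, which removes scaling between libraries. These ratios were chosen after the values were seen. The ratio of *Mb21d1* to *Ifih1* was 0.722, 0.927 and 0.443 in control and 0.626, 0.749, 0.591 and 0.589 with DOX. The groups overlapped, with a difference of -0.07 in mean log2 ratio (exact 2-sided permutation p = 0.86), which does not show that both genes changed equally. With DOX+IL-17A it was 1.0, 1.39 and 1.04, above every DOX library, a difference of 0.83 in log2 ratio. IL-17A alone gave 1.21, 1.07 and 0.846, also above every DOX library. That of *Mb21d1* to *Dhx58* was 6.5, 3.41 and 1.316 in control and 1.33 to 1.76 with DOX (a difference of -0.98, exact permutation p = 0.29). With DOX+IL-17A it was 2.73 to 5.52, inside the control range and above the DOX libraries, a difference of 1.45 from DOX, and with IL-17A alone 2.18 to 6.45, above them as well. The ratio to *Ddx58* differed by 0.45 in log2 between DOX+IL-17A and DOX, without overlap (IL-17A alone 0.354 to 0.656, above the DOX maximum of 0.324), and that to *Tlr3* by 0.54 with overlapping groups (exact permutation p = 0.17). Those to *Ifih1*, *Dhx58* and *Ddx58* had an exact 2-sided permutation p of 0.0571, the smallest that 4 against 3 libraries can give, and 0.11 after adjustment over 12 tests (6 ratios in 2 comparisons). Values above those with DOX in these 3 ratios were thus not particular to the combined treatment. *Mb21d1* over *Tmem173* was 0.461 to 0.882 in control and 1.64 to 1.87 with DOX, and *Mb21d1* over *Trex1* was 1.103 to 3.09 in control and 3.31 to 4.65 with DOX, both without overlap (exact permutation p = 0.0571, adjusted 0.11). With IL-17A added, the ratio to *Tmem173* was 0.735 to 1.46, below every DOX library, and the ratio to *Trex1* spread from 2.45 to 11.7. With IL-17A alone the ratio to *Tmem173* was 0.636 to 1.59 and that to *Trex1* 1.79 to 3.06, both also below every DOX library.

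**Figure D3:**
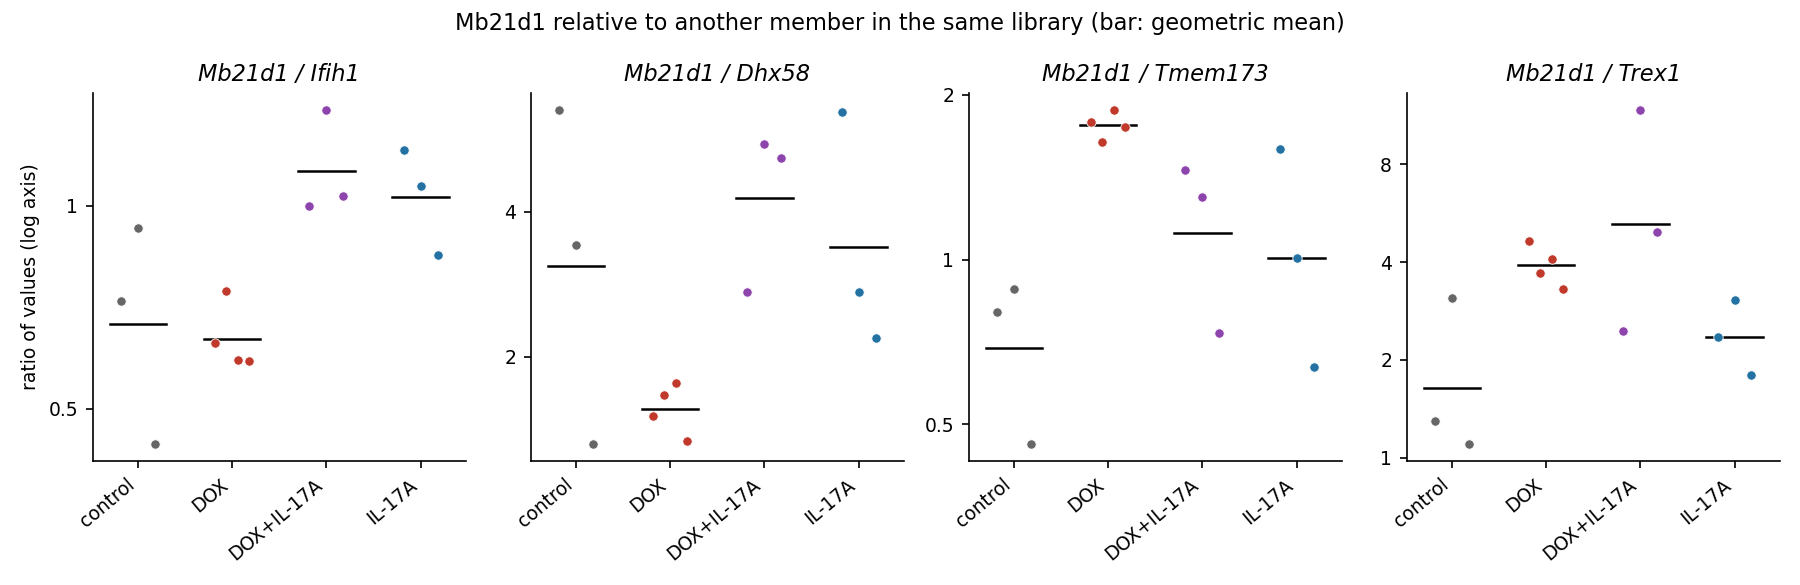
Ratio of *Mb21d1* to *Ifih1*, *Dhx58*, *Tmem173* and *Trex1* in each library (points, log axis, a scale for each panel), with the geometric mean of each group as a bar. With DOX+IL-17A the ratios to *Ifih1* (1.0 to 1.39) and *Dhx58* (2.73 to 5.52) lie above those of all DOX libraries.

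The other genes of the pathway were described from lists written by role, of which 188 genes were found and 187 tested. In DOX against control 36 of these were called higher, 5 lower and 146 neither (19.3% higher and 2.67% lower, against 9.15% and 6.18% of all tested genes, median log2 fold change 0.34). The shares of all tested genes apply to each list below as well. For DOX+IL-17A against control 21 were called higher and 4 lower (11.2% and 2.14%, against 6.95% and 5.95% of all tested genes, median 0.21). For DOX+IL-17A against DOX 0 were called higher and 13 lower (6.95% of the list genes, against 0.325% of all tested genes, median -0.11), and in IL-17A against control 0 of 187 were called. A single list of 19 genes, the early targets of IRF3 and feedback factors, held 16 of the 36 higher calls with DOX. It also held 11 of these 13 lower calls, so the pooled shares do not describe the other lists. The calls of lower genes in DOX+IL-17A against DOX depend on single libraries. Over all tested genes 40 were called lower there. This became 0 without DOX+IL-17A replicate 3, 3 without DOX+IL-17A replicate 5 and 5 without DOX replicate 4. With a block on the replicate number it was 8. The calls of *Zbp1*, *Usp18*, *Ddx60* and the early targets below are therefore all lost without DOX+IL-17A replicate 3. In that fit 0 of the 13 list genes remained called. The log2 fold changes over the 13 fits without a library stayed between -1.80 and -1.60 for *Zbp1* and between -1.97 and -1.53 for *Usp18*. For *Ddx60* they were -1.73 to -1.47, and for *Rsad2*, an early target, -2.95 to -2.22.

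Control replicate 1 also set calls with DOX. Without it 31 list genes were called higher and 4 lower in DOX against control, and without DOX replicate 4 these counts were 31 and 5. Over the 13 fits without a library they were 31 to 41 and 4 to 7. For the list genes named below, 21 of 32 calls in DOX against control held in all 13 of these fits. The other 11 were all lost without control replicate 1, and the log2 fold change in that fit is given beside each. Those of *Zcchc3*, *Usp38*, *Nek7*, *Ifi203*, *Sec24a*, *Supv3l1* and *Pnpt1* were also lost without certain other libraries. *Sec24a* was called in 7 of 13 of these fits. Of the calls in DOX+IL-17A against control 11 of 21 held in all fits, and of those in DOX+IL-17A against DOX 0 of 8.

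Early targets of IRF3 and feedback factors held 16 of 19 genes called higher with DOX (median log2 fold change 3.12), 10 called higher in DOX+IL-17A against control (median 1.17) and 11 called lower in DOX+IL-17A against DOX (median -1.74). *Isg15*, a ubiquitin-like modifier, was 17.9 ± 5.51 in control (SD, n = 3), 426 ± 74.1 with DOX (SD, n = 4), 90.2 ± 45.3 with DOX+IL-17A and 26.4 ± 14.4 with IL-17A (SD, n = 3 each). *Ifi44* (log2 fold change 4.46 with DOX, -2.23 in DOX+IL-17A against DOX), the antiviral enzyme gene *Rsad2* (3.78 and -2.51), the GTPase gene *Gbp3* (3.69 and -2.16) and *Ifit3b* (3.68 and -2.10) were called in both. *Ifit3b* has near-identical paralogs among which reads may be split. The chemokine gene *Cxcl10* was called with DOX (4.31) and had -1.56 in DOX+IL-17A against DOX (adjusted p = 0.25, limma). *Irf9* (0.84, adjusted p = 0.027) and *Irf1* (0.41, adjusted p = 0.18) were the most abundant that were not called with DOX. With IL-17A alone the list's median was -0.01. Of 16 interferon genes 1 was found (*Ifna13*, too low to be tested), and the others were not analysed here.

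DNA sensors other than cGAS held 5 of 26 called higher and 0 lower with DOX (median 0.27), and 1 called lower in DOX+IL-17A against DOX. *Zbp1*, a sensor of left-handed nucleic acid that starts necroptosis, was 4.79 ± 2.41 in control (SD, n = 3), 98.8 ± 16.8 with DOX (SD, n = 4), 29.6 ± 3.55 with DOX+IL-17A and 6.10 ± 0.52 with IL-17A (SD, n = 3 each). Its log2 fold change was 4.20 with DOX (adjusted p = 1.9e-06), 2.50 in DOX+IL-17A against control (adjusted p = 0.00026) and -1.70 in DOX+IL-17A against DOX (adjusted p = 0.020, limma), called in each. The other 4 belong to the Ifi200 family of DNA-binding proteins, *Ifi205* (log2 fold change 2.57), *Mndal* (1.43, and 0.99 without control replicate 1), *Ifi203* (1.31, and 0.66 without control replicate 1) and *Ifi211* (1.31), a family of similar genes in 1 cluster whose reads may be split between members. None of these 4 was called in DOX+IL-17A against DOX (-0.94, -0.93, -0.92 and -0.71). *Lrrfip1* was called lower in DOX+IL-17A against control (-1.17, in 11 of 13 fits with a library left out) and had -0.995 with DOX. *Hmgb1* (-0.50 with DOX) and *Hmgb2* (-0.67), abundant chromatin proteins, were not called.

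**Figure D4:**
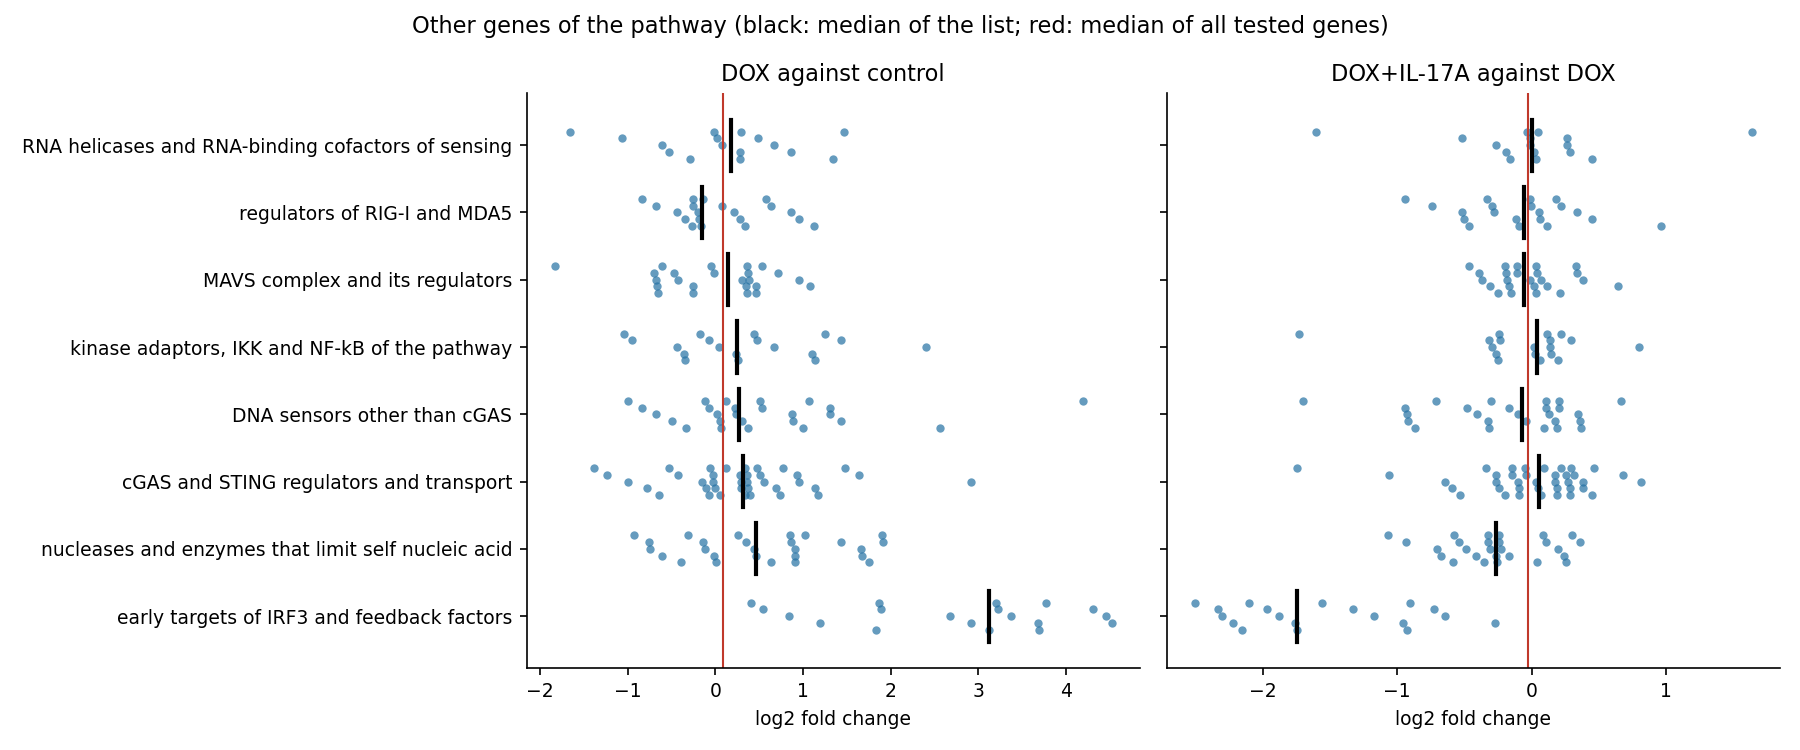
Log2 fold change (x axis) of each tested gene (points) of 8 pathway lists in DOX against control (left) and DOX+IL-17A against DOX (right), with the median of each list in black and that of all tested genes in red. The early targets of IRF3 have a median of 3.12 on the left and -1.74 on the right, and the other 7 lists lie between -0.15 and 0.47 on the left.

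Regulators of the cGAS-STING arm and of its transport held 4 of 38 called higher and 1 lower with DOX (median 0.32), against 9.15% and 6.18% of all tested genes. *Usp18*, which removes ISG15 and dampens interferon signalling, had a log2 fold change of 2.92 with DOX and -1.74 in DOX+IL-17A against DOX (adjusted p = 0.020, limma), the 1 gene of the list called there. *Trim21*, a ubiquitin ligase, was called with DOX (1.64). Of the coat proteins that carry STING out of the endoplasmic reticulum *Sec24a* was called higher (1.17, and 0.84 without control replicate 1) and *Sec24d* lower (-1.23), and *Ykt6*, a SNARE, was called higher (1.132). *Banf1* (0.96, adjusted p = 0.11), which shields nuclear DNA from cGAS, and *Tmed2* (0.36, adjusted p = 0.38) were not called. Nucleases and enzymes that limit self nucleic acid, the group to which *Trex1* belongs, held 5 of 27 called higher and 0 lower with DOX (median 0.47) and none called in DOX+IL-17A against DOX (median -0.27). They were the RNA editing enzyme gene *Adar* (1.75), the flap endonuclease gene *Fen1* (1.90), the exonuclease gene *Exo1* (1.67) and the pair that degrades mitochondrial RNA, *Supv3l1* (1.91, and 0.94 without control replicate 1) and *Pnpt1* (1.02, and 0.87). *Supv3l1* remained called in 9 of 13 fits with a library left out and *Pnpt1* in 3. *Endod1* passed the adjusted p with DOX (0.90, adjusted p = 0.0032) under the fold, and *Rnaset2a* (1.67, adjusted p = 0.072) was not called.

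Among helicases and RNA-binding cofactors 2 of 16 were called higher and 2 lower with DOX (median 0.17). *Ddx60*, a helicase that promotes RIG-I signalling, was called higher with DOX, at 30.5 ± 4.46 in control (SD, n = 3), 86.8 ± 16.5 with DOX (SD, n = 4) and 27.7 ± 4.997 with DOX+IL-17A (SD, n = 3), and it was called lower in DOX+IL-17A against DOX (-1.61, adjusted p = 0.0052, limma). The nucleolar helicase gene *Ddx21* was called higher (1.34) and had -0.01 in DOX+IL-17A against DOX, while *Prkra* (-1.65), which encodes the activator PACT, and *Zcchc3* (-1.07, and -0.82 without control replicate 1) were called lower. *Nod2* was called in DOX+IL-17A against control alone (1.93), from 1.29 to 8.48, and *Ddx3x* (0.07 with DOX) and *G3bp1* (0.49) were not called. Of the regulators of RIG-I and MDA5 0 of 20 were called with DOX (median -0.15), and 1, *Trim65*, was called lower in DOX+IL-17A against control (-1.42) at a mean of 2.62 in control and 0.271 with both agents, a call that held in 9 of 13 fits with a library left out. *Ywhae* (-0.26 with DOX) and *Csnk2a1* (-0.26) were the most abundant of them. In the MAVS complex 1 of 24 was called higher, the import receptor gene *Tomm70a* (1.08, and 0.74 without control replicate 1), and 1 lower, *Pcbp2* (-1.83), which encodes a protein that marks MAVS for degradation (median 0.14), with *Otud4* (-0.02) and *Pcbp1* (-0.05) not called. None was called in DOX+IL-17A against DOX.

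Among kinase adaptors, IKK and NF-kB genes 4 of 18 were called higher and 1 lower with DOX (median 0.25), and none in DOX+IL-17A against DOX. *Nfkbia*, the NF-kB inhibitor that is itself an NF-kB target, had 1.25 with DOX (0.83 without control replicate 1) and 1.47 in DOX+IL-17A against control, both called, and 1.07 with IL-17A alone (adjusted p = 0.96, limma). The TBK1 adaptor gene *Tank* (1.133, and 0.96 without control replicate 1), *Usp38* (1.43, and 0.78) and *Siglecg* (2.40) were called higher with DOX, and *Nek7* (-1.05, and -0.88) lower. *Ikbke*, the gene for the kinase closest to TBK1, was called in DOX+IL-17A against control (1.06, in 8 of 13 fits with a library left out) and had 0.26 with DOX. *Rela* (0.44) and *Ppm1a* (-0.34) were not called.

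The genes most like 3 of the members over the 13 libraries were taken by Pearson correlation of log2(value + 1) among 9490 genes with a mean value of at least 5, as a description. All libraries share the 4 conditions, which alone can make values move together. *Ddx58* was most like *Cxcl11* (r = 0.96), *Lgals9* (0.94), *Parp14* (0.94), *Sp110* (0.94) and *Zfp955b* (0.93). *Mb21d1* was most like *Mphosph10* (0.95), *Atf3* (0.95), *Brms1* (0.95), *2810013P06Rik* (0.95) and *Cenpu* (0.95), and shared none of its 5 with *Ddx58*. *Trex1* had lower values, with *Ap3m2* (0.86), *Slc24a3* (0.83), *Gpalpp1* (0.80), *Oas1c* (0.77) and *Ranbp6* (0.74). Among the members themselves, r was 0.91 between *Ddx58* and *Ifih1*, 0.82 between *Mb21d1* and *Ifih1* and 0.09 between *Mb21d1* and *Trex1*.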

How the data were processed

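Bulk RNA of 13 libraries of 4T1 cells was sequenced by the authors from the 3' end (QuantSeq FWD, single 75 base reads), mapped to mm10 with STAR 2.6, counted with featureCounts (Rsubread 1.30.5) and normalized by TMM. The deposited signal is this TMM-normalized value, and no counts were given. All values (100%, within 0.1 of a read) were whole multiples of 1 step per library, so reads were recovered. Of 13223 entries 1 repeat was removed. limma 3.58.1 with trend was fitted on log2(value + 1) for 12319 genes kept by edgeR 4.0.16 filterByExpr. Alternatives were voom, DESeq2 1.42.0, edgeR (chosen after seeing the data), size scaling, other filters, a pseudocount of 0.1, fewer groups, a replicate block and each library left out. Named genes were all members and, per list, up to 6 genes called in any of the first 3 comparisons, by size of change with DOX, and the 2 most abundant called in none. Members and lists were chosen with earlier results of these data known. Replicates differed beyond sampling noise (chi-square per degree of freedom 7.72 to 182). Ratios were compared by exact permutation with scipy 1.17.1. Promoters were from RefSeq and loci from GENCODE.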

Additional observations from a re-analysis of the deposited data

Results flagged for a closer look

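Of 62 genes checked in the 4 DOX libraries, 1 had a library far from the other 3 relative to their range by a Dixon rule of 95% confidence. *Rnaset2a*, a lysosomal ribonuclease gene, was 352 in DOX replicate 2 and 218, 216 and 222 in replicates 1, 3 and 4. The gap to the nearest library was 0.958 of the range. *Rnaset2a* has a near-identical copy, *Rnaset2b*. The cause was not tested. No member had such a library, and no member had an interaction of DOX with IL-17A at an adjusted p under 0.05.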

How the results depend on the processing

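The log2 fold changes of the 10 members in 6 comparisons (60 results) were refitted under 1310 alternatives in all. Of these 1240 kept their direction and side of the threshold, 32 lost a call, 8 gained one and 30 changed sign. Most of the 60 results were not called in the main fit and had no call to lose. Leaving out a library outside the groups compared cannot change a fold change. All lost calls were those of *Mb21d1* in DOX+IL-17A against control and of *Ifih1* and *Dhx58* in DOX+IL-17A against DOX. The last 2 were lost in 10 and 11 of 13 fits without a library. No value that changed sign was called, and the largest in the main result was 0.35 in size. The causes were not tested.

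The count of members called in DOX against control (4) was 4 or 5 throughout. In DOX+IL-17A against control (1) it was 0 when other groups were dropped from the fit (only the groups compared), and 0 to 1 with a library left out. In DOX+IL-17A against DOX (2) it was 1 with edgeR, with scaling by library size and over all listed genes, 0 with a pseudocount of 0.1 and 0 to 2 with a library left out. Over all genes the calls there, 14 higher and 40 lower, were 22 and 66 without control replicate 1 and 1 and 0 without DOX+IL-17A replicate 3. With the replicate block they were 6 and 8. In DOX+IL-17A against IL-17A (0) it was 1 with scaling by size and with the adjusted p alone, and 0 to 1 with a library left out. Libraries with the same number deviated together with a mean r of 0.15 (13 pairs, -0.18 to 0.49), against -0.04 for different numbers (50 pairs). Over 0.1 were 8 of 13 pairs with the same number and 13 of 50 with different numbers. Not every pair with the same number was over 0.1, and the numbers were not taken to pair samples in the main fit. This choice does not show that the libraries were unpaired. A block on the numbers is given as an alternative. With the replicate block the count in DOX+IL-17A against DOX was 0, the other counts did not change, and *Trex1* in DOX against control became -0.0289.

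Other sign changes were *Irf3* in DOX+IL-17A against DOX (0.0645 with DESeq2, 0.0446 with edgeR), *Ddx58* in the interaction (0.0283 with DESeq2) and *Tbk1* in DOX+IL-17A against IL-17A (0.0828 with scaling by size). With a library left out, DOX against control ranged from -0.0871 to 0.43 for *Trex1* and from -0.39 to 0.0074 for *Irf3*. DOX+IL-17A against control ranged from -0.0856 to 0.28 for *Ddx58*, from -0.20 to 0.63 for *Mavs*, from -0.0287 to 0.60 for *Tbk1* and from -0.52 to 0.18 for *Irf3*. DOX+IL-17A against DOX ranged from -0.12 to 0.53 for *Tmem173*, from -0.46 to 0.17 for *Tbk1* and from -0.35 to 0.35 for *Irf3*. IL-17A against control ranged from -0.27 to 0.49 for *Dhx58*, from -0.50 to 0.0137 for *Trex1* and from -0.0067 to 0.47 for *Irf3*. DOX+IL-17A against IL-17A ranged from -0.72 to 0.0846 for *Trex1* and from -0.36 to 0.27 for *Tbk1*. The interaction ranged from -0.23 to 0.14 for *Ddx58* and from -0.55 to 0.15 for *Irf3*.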

Other observations

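Of 8 epithelial and line markers 2 were called lower with DOX. *Epcam*, a cell adhesion gene, went from a mean of 539 in control to 186 with DOX (log2 fold change -1.50, adjusted p = 0.00039, limma) and the keratin gene *Krt19* from 199.5 to 44.3 (-2.08, adjusted p = 0.00011). In DOX+IL-17A against DOX none of the 8 was called (*Epcam* -0.19 with a 95% interval of -0.66 to 0.27, *Krt19* 0.10 with -0.45 to 0.65, *Krt18* -0.59 with -1.13 to -0.04, the last at an adjusted p of 0.73 with limma). No test compared these markers with the sensors. *Krt7* (-0.98, adjusted p = 0.00097, limma), *Krt8* (-0.69, 0.014) and *Krt18* (-0.87, 0.025) passed the adjusted p with DOX under the fold, so 5 of 8 passed it, and all 8 were lower (median -0.78). *Cldn4* (-0.07), *Cdh1* (-0.67) and *Thy1* (-0.63) did not pass it.

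Among the list genes named in the text, 12 of 46 with a promoter in the RefSeq table held GAAANNGAAA. These were *Ddx60*, *Tomm70a*, *Ifi205*, *Mndal*, *Ifi203*, *Ifi211*, *Trim21*, *Isg15*, *Cxcl10*, *Rsad2*, *Gbp3* and *Ifit3b*, all called higher with DOX. *Isg15* held it 3 times, starting 78, 72 and 66 bases before the start site. Named list genes called higher with DOX but without a match were *Ddx21*, *Siglecg*, *Usp38*, *Nfkbia*, *Tank*, *Sec24a*, *Ykt6*, *Supv3l1*, *Fen1*, *Adar*, *Pnpt1* and *Ifi44*. Over all genes the letters were in 3.44% of 32851 promoters, a share counted by promoter and not by gene. The list genes were named partly for their change with DOX, so the share of 12 of 46 is a description.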
